A study of Mus musculus with 4 samples.

Results

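The baseline DNA methylation of CpG islands in the neonatal mouse brain was described from the 2 arrays of vehicle-exposed offspring, Sham male and Sham female, out of 4 arrays in the series. The arrays were read for what they shared and not for their difference. An autosomal probe was measured when its input signal was well above background on both Sham arrays, which held for 80654 of 85850 autosomal probes. Probes separated by gaps of at most 1000 bp formed a region, and 12671 of 14177 regions had at least 3 measured probes. Of these, 356 regions were in the top 5% on both arrays and 109 were in the bottom 5% on both.

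Dams were C57BL/6J mice (C57BL/6 in the strain labels) given 25 μL of vehicle into the trachea during pregnancy, with no genetic modification named. The sample names place this on gestational day 14 and the protocol on gestational day 10.5. Per the methods of the study, the vehicle was what remained of the nanoparticle suspension after the particles had been spun and filtered out. Whole brains were taken from offspring of both sexes at 1 day of age, and 2 offspring from each of 5 dams were pooled into 1 DNA sample per sex. Each Sham group is therefore 1 pool on 1 array, and no value below has a replicate, an SD or a test. The Sham male array was on slide 1 and the Sham female array on slide 2, so that sex and slide cannot be told apart. The TiO2-H arrays, pools from dams given titanium dioxide nanoparticles, served only as arrays that had no part in choosing the regions. The input signal of X-linked probes lay 0.67 (log2) below that of autosomal probes on the Sham male and 0.09 above it on the Sham female array. It lay 0.09 above on the TiO2-H array labelled male and 0.69 below on the one labelled female, against these labels. DNA gives no expression level, so the tissue label could not be checked against marker expression.

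CpG islands are stretches rich in CG dinucleotides, many of them at gene promoters, where they are mostly free of methylation in somatic tissue. Known exceptions are islands of germline genes, which are methylated and silent in somatic cells, imprinted control regions, which are methylated on the copy from 1 parent, and a class of islands inside genes. Methylated DNA immunoprecipitation (MeDIP) pulls down fragments with an antibody against 5-methylcytosine. The MeDIP fraction carried Cy5 and the input DNA carried Cy3 on the same array. A region's value was the median over its measured probes of log2(Cy5/Cy3), centred on the median of all measured autosomal probes of that array. A value of 0 is thus the typical probe on the array and not the absence of methylation, and a value of 1 is a doubled ratio. Pairs of values are given with the Sham male array first.

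The start regions of 4 genes show the kind of sequence behind these values. Dazl and Ddx4, an RNA-binding protein and an RNA helicase of germ cells, were in the top group on both arrays. Mcm6, a subunit of the replicative helicase, and Espl1, the protease separase, were in the bottom group on both arrays. They are shown because the array annotation places at least 1 probe of each region between 250 bases before and 50 bases after the gene start. Each sequence is the RefSeq window of those 300 bases on the GRCm38.p6 build, 5′ to 3′ on the strand of the gene, with CG dinucleotides in capitals. The windows lie at chr17:50293571-50293870 (minus strand), chr13:112652261-112652560 (minus strand), chr1:128359656-128359955 (minus strand) and chr15:102296043-102296342 (plus strand).
Dazl: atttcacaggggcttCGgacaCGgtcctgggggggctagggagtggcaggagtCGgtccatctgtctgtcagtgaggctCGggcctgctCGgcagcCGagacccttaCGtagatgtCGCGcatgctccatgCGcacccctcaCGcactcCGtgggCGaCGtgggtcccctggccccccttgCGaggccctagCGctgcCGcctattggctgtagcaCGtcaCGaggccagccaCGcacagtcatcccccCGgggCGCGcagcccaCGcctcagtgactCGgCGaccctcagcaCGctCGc
Ddx4: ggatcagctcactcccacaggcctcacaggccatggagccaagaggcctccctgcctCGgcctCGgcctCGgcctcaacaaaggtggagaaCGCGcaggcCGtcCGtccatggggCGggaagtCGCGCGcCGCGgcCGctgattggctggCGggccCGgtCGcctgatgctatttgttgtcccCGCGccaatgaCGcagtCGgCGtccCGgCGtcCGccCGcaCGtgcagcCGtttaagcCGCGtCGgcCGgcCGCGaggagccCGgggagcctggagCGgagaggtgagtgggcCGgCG
Mcm6: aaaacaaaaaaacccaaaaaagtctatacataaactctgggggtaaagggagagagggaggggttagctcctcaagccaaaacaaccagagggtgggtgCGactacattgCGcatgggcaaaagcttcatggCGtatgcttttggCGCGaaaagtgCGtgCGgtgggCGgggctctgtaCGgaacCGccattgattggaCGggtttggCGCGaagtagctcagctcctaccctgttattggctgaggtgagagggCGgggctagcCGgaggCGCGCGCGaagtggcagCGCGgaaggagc
Espl1: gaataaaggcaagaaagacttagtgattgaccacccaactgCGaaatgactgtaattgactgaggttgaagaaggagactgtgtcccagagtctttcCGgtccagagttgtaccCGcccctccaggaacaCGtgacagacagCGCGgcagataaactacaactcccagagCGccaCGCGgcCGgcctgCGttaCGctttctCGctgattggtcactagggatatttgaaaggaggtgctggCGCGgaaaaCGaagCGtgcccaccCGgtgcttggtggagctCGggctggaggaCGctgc
There are 28 CG dinucleotides in the Dazl window, 38 in that of Ddx4, 21 in that of Mcm6 and 20 in that of Espl1. The median was 24 over the 457 windows of measured regions with a probe in the window, of which 73.3% held at least 20, and 7 over all 32851 windows of the table. The windows shown from the top group thus held more CG dinucleotides than that median and those from the bottom group fewer. This contrast is not read as a trait of the groups, since the 7 windows of the top group ranged from 13 to 38. Over the 24 windows of regions above 1 on both arrays the median was 21. Over the 226 windows of regions below 0 on both arrays it was 24.

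Region values were spread to the right on both arrays. On the Sham male array they ranged from -3.46 to 5.42, with 5% and 95% quantiles of -1.34 and 1.68. On the Sham female array they ranged from -1.57 to 3.85, with quantiles of -0.70 and 1.37. The Sham female values were more compressed, with a standard deviation across regions of 0.60 against 0.93. The upper quantile lay 1.70 above the median on the Sham male array and the lower one 1.32 below it, and on the Sham female array these distances were 1.39 and 0.68. Values above 1 were found in 1968 regions (15.5%) on the Sham male and in 1110 regions (8.76%) on the Sham female array. Values below -1 were found in 11.2% and 1.17%.

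**Figure D1:**
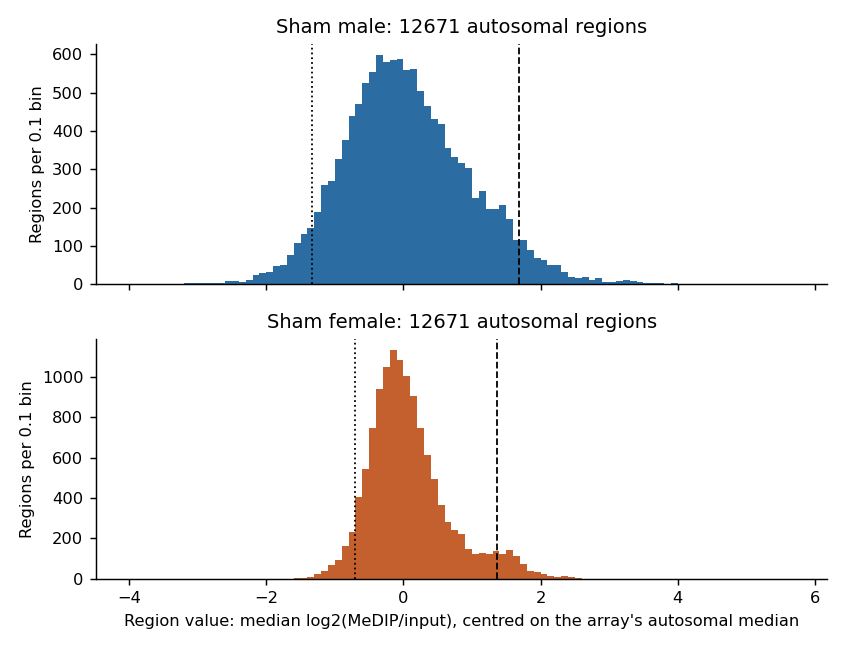
Histograms of region values on the Sham male array (upper) and the Sham female array (lower), with the region value on the x axis and the number of regions per bin of 0.1 on the y axis. Dashed and dotted lines mark the top and bottom 5%, at 1.68 and -1.34 on the Sham male array and at 1.37 and -0.70 on the Sham female array, and the Sham female values have a shoulder near the dashed line.

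The signal was uneven between the channels. The median background-subtracted signal of the measured probes was 87.6 intensity units for input and 5.92 for MeDIP on the Sham male array, and 93.3 and 7.06 on the Sham female array. Cy5 was well above background at 54.5% of measured probes on the first and at 62.6% on the second array. At 12.8% and 3.88% of probes, respectively, Cy5 did not differ from background and its processed value was a stand-in set by the scanner software. Where Cy5 was not well above background, a low value is only a bound.

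The arrays shared much of their pattern across regions, and most of what they shared was particular to the probes. Region values on the Sham male and Sham female arrays had a Pearson correlation of 0.73 and a Spearman correlation of 0.68 over 12671 regions, given as a description because regions are not replicates. The input signals of single probes correlated at 0.96 between the arrays. When each region was divided into its odd-numbered and even-numbered probes, the odd probes on the Sham male array and the odd probes on the Sham female array correlated at 0.75, and the even probes at 0.79. Odd probes on one array and even probes on the other correlated at 0.27 and 0.25 only. The odd and even probes of the same region on the same array correlated at 0.28 on the Sham male and at 0.38 on the Sham female array. A region's value thus depended strongly on which of its probes were read.

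Neighbouring probes agreed weakly. Next probes at most 100 bp apart had a correlation of log ratios of 0.19 on the Sham male and 0.21 on the Sham female array. It fell to 0.14 and 0.15 at 150 to 200 bp, and to 0.02 and 0.06 at 400 to 800 bp. Input signals alone, which carry no methylation, had correlations of 0.25 and 0.35 at most 100 bp apart. Of 65553 pairs of next probes, 57.0% lay on the same side of the array median on the Sham male and 56.9% on the Sham female array. Differences between regions held 9.3% of the variance of probe log ratios on the Sham male and 14.4% on the Sham female array. Next regions 1 to 5 kb apart had a correlation of 0.16 and 0.24, while at 20 to 100 kb it was 0.04 and 0.03.

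**Figure D2:**
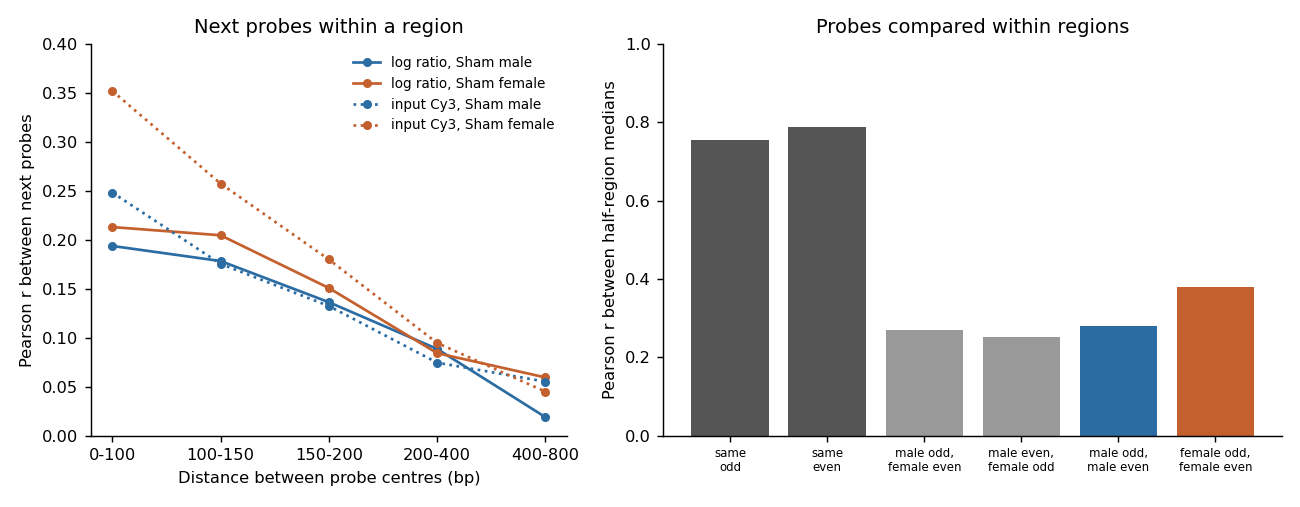
Left, Pearson correlation between next probes within a region (y axis) by the distance between probe centres in bp (x axis), for log ratios (solid lines) and input Cy3 (dotted lines) on both Sham arrays. Right, correlation between medians of odd and even probes over 12671 regions, where the same probes on the 2 arrays reached 0.75 and 0.79 and different probes stayed between 0.25 and 0.38.

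The top 5% of each array was 634 regions (5.00%), and 356 of them were on both lists, 56.2% of each list and 2.81% of all measured regions. The limits were 1.68 on the Sham male and 1.37 on the Sham female array, and the nearest regions outside had the same values to 2 decimals. No region was in the top 5% of one array and the bottom 5% of the other, in either direction (0 and 0). Within the top group the median value was 2.19 on the Sham male and 1.71 on the Sham female array. The group held many short regions, with a median of 4 measured probes and 446 bp, against 5 probes and 716 bp for regions in neither group. Regions with 3 probes were in the top group in 6.53% of cases, those with 5 to 6 probes in 1.87%, and those with 15 or more in 1.12%. Because these regions were chosen by their medians, their height itself is no result. The input level was 10.13 and 10.14 on the log2 scale in the top group against 9.85 and 9.82 in regions of neither group, and its part in the ratios was not tested.

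The probes of the top regions are given as a description, since their medians chose the regions. Of their 1657 probes, 95.2% lay above the array median on the Sham male and 95.8% on the Sham female array, and Cy5 was well above background at 91.6% and 95.0%. In 277 of the 356 regions (77.8%) every measured probe lay above the median on both arrays. Over all 12671 regions this held for 949 (7.49%), and nothing is read from the difference.

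With the 2 arrays read through different probes, over 5953 regions with at least 6 probes, 79 of 298 top regions (26.5%) were on both lists when odd probes were read on the Sham male array and even probes on the Sham female array. It was 66 (22.1%) the other way round. Through the same probes the overlap was 171 (57.4%) and 176 (59.1%). The part of the overlap that did not rest on shared probes was therefore smaller, but remained above the 5.00% that each list takes of all regions.

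**Figure D3:**
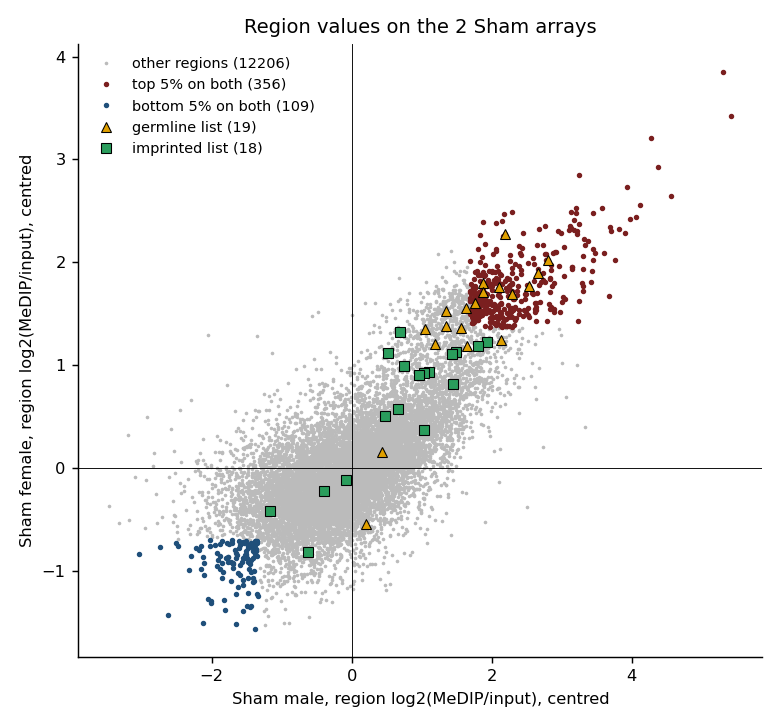
Region values on the Sham male array (x axis) and the Sham female array (y axis), both as centred log2(MeDIP/input), for 12671 regions. Red and blue points are the 356 top and 109 bottom regions, triangles are the 19 regions of the germline list, 17 of which lie above 1 on both arrays, and squares are the 18 regions of the imprinted list, none of them in either group.

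Gene symbols were found for 3308 regions (26.1%), of which 144 (4.35%) were in the top group and 13 (0.393%) in the bottom group. The symbols came mainly from a supplementary table of the study that is ordered by the ratio of TiO2-H to Sham. It covers only part of the array. A second table lists only genes with lower methylation in TiO2-H than in Sham, so that a high Sham value favours being listed. Regions with a symbol are therefore not a random part of all regions.

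Islands of germline genes stood high on both arrays. The list was chosen with earlier results of these data known. Its members Sycp3, Ddx4 and Dpep3 are also printed in tables of the study. Ddx4 and Dpep3 are printed in the table that lists only genes with lower methylation in TiO2-H. The counts are therefore a description only. Of the 84 genes on the list, 18 had a measured region, and 9 of their 19 regions (47.4%) were in the top group, against 4.35% of regions with a symbol. The medians of the list were 1.77 on the Sham male and 1.56 on the Sham female array, beside -0.09 and 0.01 over all regions with a symbol. Above 1 on both arrays were 17 of the 19 regions (89.5%), against 425 of 3308 (12.8%). The list's place depended on how dim Cy5 was treated. With Cy5 well above background at every probe used, 3 of 15 regions (20.0%) were in the top group, against 2.77% of all regions, and the medians were 1.09 and 1.17. With a normexp correction, 2 of 19 (10.5%) were there, against 0.971% of all regions, and the medians were 0.36 and 0.04.

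Ddx4 at chr13:113442131-113442701 (all array positions are on the mm9 build) was read by 5 probes. Its region value was 2.67 on the Sham male and 1.89 on the Sham female array. Each of the 5 probes was high, between 1.89 and 3.01 on the Sham male array and between 1.55 and 2.30 on the Sham female array. Dazl at chr17:50431910-50433097, whose window is shown above, had 8 measured probes and region values of 1.87 and 1.71. Its probes ranged from 1.25 to 2.85 on the Sham male array and from 0.82 to 1.91 on the Sham female array, so that none lay near the array median.

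Sycp3 (chr10:87922155-87922793), a component of the synaptonemal complex that holds paired chromosomes together in meiosis, had 2.80 and 2.02 over 6 probes. The probe values ranged from 0.87 to 5.11 on the Sham male array and from 1.29 to 3.66 on the Sham female array, with the highest on both arrays at the last probe along the chromosome. The brightest of these probes had a processed MeDIP signal of 131981 and 68716 intensity units against 6259 and 7041 for input.

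Genes of the piRNA pathway, which silences transposons in germ cells, were among them. Tdrd1, a tudor domain protein of that pathway, had 2.53 and 1.77 at its promoter region of 3 probes (chr19:56900545-56901091). A second region assigned to Tdrd1 as a divergent promoter, at chr19:56896203-56896911, had 0.20 and -0.55 and was not high. Mael, which acts in the same pathway, had 2.29 and 1.69 over 5 probes.

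The testis helicase gene D1Pas1 had 1.88 and 1.80 over 7 probes, the germ cell kinase Stk31 had 2.10 and 1.76 over 4, and the dipeptidase Dpep3 had 2.19 and 2.28 over 6. The meiosis gene Meioc completed the 9 with 1.77 and 1.60 over 10 probes. Every measured probe of D1Pas1, Stk31 and Dpep3 lay above the median on both arrays.

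Outside the top group the list held 8 further regions above 1 on both arrays. Sycp1, the transverse filament of the synaptonemal complex, had 1.57 and 1.36, Spo11, which makes the DNA breaks of meiosis, 1.34 and 1.52, and Piwil2, a PIWI protein, 1.64 and 1.18. These 3 were named after their values were seen. The 1 other gene of the list that was not high was Tcp11, a sperm gene, at 0.43 and 0.16.

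Few gene starts were in the top group. Of 457 measured regions with a single promoter window and a probe in it, 7 were in the top group. The share in that group was 2.81% over all measured regions and 4.35% over regions with a symbol. Beside Dazl and Ddx4 they were Henmt1, the methyltransferase that protects piRNAs, at 3.14 and 2.33; Hsf5, a heat shock factor of the testis, at 2.74 and 1.90; Naa11, an acetyltransferase of the testis, at 2.41 and 1.92; Topaz1, a germ cell gene, at 1.82 and 1.87; and Btbd18, which acts in piRNA transcription, at 1.69 and 1.50. Other than Dazl and Ddx4 these genes were on none of the lists, and all of these but Henmt1 were named after their values were seen. Promoter regions without a probe in such a window were also in the top group, among them those of Pard6b, a cell polarity gene, at 2.60 and 1.81, Sh3bp2, an adaptor protein gene, at 1.71 and 1.79, and Dcdc2c, of the doublecortin family, at 2.12 and 1.60, likewise named after their values were seen. The windows of the 7 top regions with a probe in the window held 13 to 38 CG dinucleotides with a median of 28. The median was 24 in the 448 windows of regions in neither group.

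**Figure D4:**
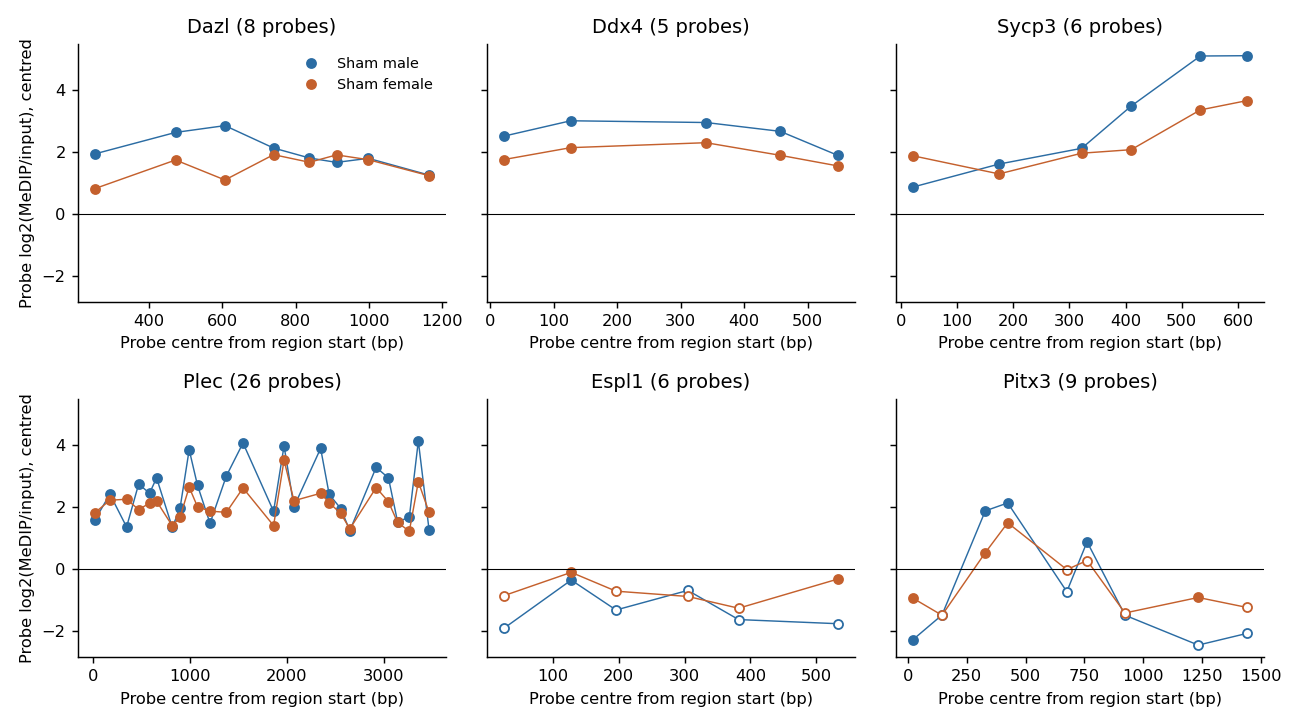
Centred log2(MeDIP/input) of single probes (y axis) against the distance of the probe centre from the start of the region in bp (x axis) for 6 regions, on the Sham male (blue) and Sham female (orange) arrays. Open circles are probes whose Cy5 was not well above background. All probes of Dazl, Ddx4, Sycp3 and Plec lie above 0 on both arrays, those of Espl1 lie below 0, and the 9 probes of Pitx3 lie on both sides.

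Most top regions with a symbol lay inside genes. The array annotation gave a class for 142 top regions, and 128 of them were inside a gene only. Of 2175 such measured regions 5.89% were in the top group, against 9 of 716 promoter regions (1.26%). Above 1 on both arrays were 17.2% of the former and 4.61% of the latter. Among probes with bright Cy5 on both arrays, the shares in the top group were 1.56% and 1.60%, so that the difference between the classes was lost.

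The region inside Plec, the gene of the cytoskeletal linker plectin, was the largest in the top group. It spanned 3488 bp at chr15:76008957-76012444, was read by 26 probes and had 2.42 and 2.07. All 26 probes lay above the array median on both arrays, from 1.25 to 4.14 on the Sham male array and from 1.22 to 3.52 on the Sham female array. A second Plec region of 4 probes began 1446 bp further on and had 2.09 and 1.68. The next by number of probes was inside Jph4, with 1.72 and 1.55 over 17 probes. Of these, 14 were above the median on the Sham male and 15 on the Sham female array. Other large top regions inside genes were those of Map1s, a microtubule-associated protein, with 1.85 and 1.75 over 16 probes, and Bcl11b, a transcription factor of cortical projection neurons, with 2.21 and 1.85 over 15. In Map1s and Bcl11b all probes were above the median on both arrays. There were 15 top regions with at least 10 probes.

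Among regions with a symbol, those with the highest lower value of the 2 arrays were mostly short. Epb41, a protein of the membrane skeleton, had 3.57 and 2.53, although only 3 of its 5 probes were above the array median. Capn5, a calpain protease, was similar with 2.99 and 2.28 and 3 of 5 probes. In Mboat7, an acyltransferase for phosphatidylinositol, all 4 probes were high and the region had 3.13 and 2.49. Jph3, a junctophilin of neurons, had 3.32 and 2.22 over 8 probes, all above the median.

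The others by this rule were also inside genes apart from Henmt1 and Dpep3, described above. Usp10, a deubiquitinase, had 2.45 and 2.28, Crocc, a protein of the ciliary rootlet, 3.38 and 2.21, and Dst, a cytoskeletal linker like plectin, 2.65 and 2.17. Tmem259 had 2.90 and 2.10 over 9 probes, and Nr1h2, a nuclear receptor for oxysterols, 2.78 and 2.08 over 6.

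Zbtb7a, a transcriptional repressor, had 3.33 and 2.16 in a region at chr10:80610694-80611390, and a further region of the gene was also in the top group. The next top region on that side was in Pias4, a SUMO ligase, 4619 bp away, with 3.14 and 1.95 over 10 probes. In all there were 8 pairs of successive top regions within 10 kb of each other, 5 of them on chromosome 10. By chromosome, the share of regions in the top group went from 1.17% on chromosome 14 to 5.44% on chromosome 10.

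The region with the highest lower value of the 2 arrays had no symbol. It lay at chr8:81636396-81636710, had 5.30 and 3.85 over 4 probes, and also had a bright input at 12.63 and 12.84 on the log2 scale, against medians of 9.85 and 9.83.

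Regions of the imprinted list stood above the typical region, with medians of 0.86 and 0.91 over 18 measured regions. None was in the top or the bottom group (0 and 0), where regions with a symbol had shares of 4.35% and 0.393%, so that fewer than 1 of 18 would be there at these shares. A promoter region assigned to Mir335, a microRNA within the imprinted gene Mest that the list did not match by symbol, was in the top group at 2.03 and 1.47. On both arrays 14 of the 18 (77.8%) were above the array median, against 36.8% of regions with a symbol. Above 1 on both arrays were 4 of the 18 (22.2%), against 12.8% of regions with a symbol. No imprinted region falls under the naming rule, and the following were chosen after their values were seen. Cdkn1c, a growth-restraining cell cycle inhibitor expressed from the maternal copy, had 1.49 and 1.13 over 14 probes. Peg3, a zinc finger gene expressed from the paternal copy, had 0.97 and 0.90 over 9, with all of them above the median on both arrays. Airn and Kcnq1ot1, long noncoding RNAs that silence neighbouring imprinted genes, had 0.53 and 1.11 (Airn) and 1.10 and 0.93 (Kcnq1ot1). Igf2, a fetal growth factor, had -0.08 and -0.12 over 18 probes at the island read here, and Dio3, which inactivates thyroid hormone, had -0.63 and -0.82 over 15.

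Developmental transcription factors stood slightly on the low side. Their list had medians of -0.22 and -0.15, beside -0.09 and 0.01 over all regions with a symbol. It had 85 measured regions from 64 genes. None was in the top group (0) and 3 were in the bottom group (3.53%, against 0.393% of regions with a symbol). Below the median on both arrays were 44 of them (51.8%), against 39.9% of regions with a symbol. Above the median on both arrays were 16 (18.8%), against 36.8% of regions with a symbol. Above 1 on both arrays were 3 (3.53%, against 12.8%), in Sall3 and Dlx3. Housekeeping genes had 7 regions with medians of -0.88 on the Sham male and -0.11 on the Sham female array. The Gapdh island had -0.91 and 0.18, and that of Ppia, the gene of cyclophilin A, -1.32 and -0.18. Both were chosen after their values were seen, and they show that low regions on the Sham male array need not be low on the Sham female array.

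Lists of brain cell types were small and mostly near the array median. The neural progenitor list had medians of 0.24 and 0.01 over 17 regions, and the neuron list -0.46 and -0.06 over 9. The astrocyte, oligodendrocyte and endothelial lists had 2, 3 and 2 regions, with medians between -0.66 and -0.15. The microglia and blood list had 4 regions and medians of 0.67 and 0.59, and the methylation machinery list had 6 regions and medians of 0.19 and 0.06.

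**Figure D5:**
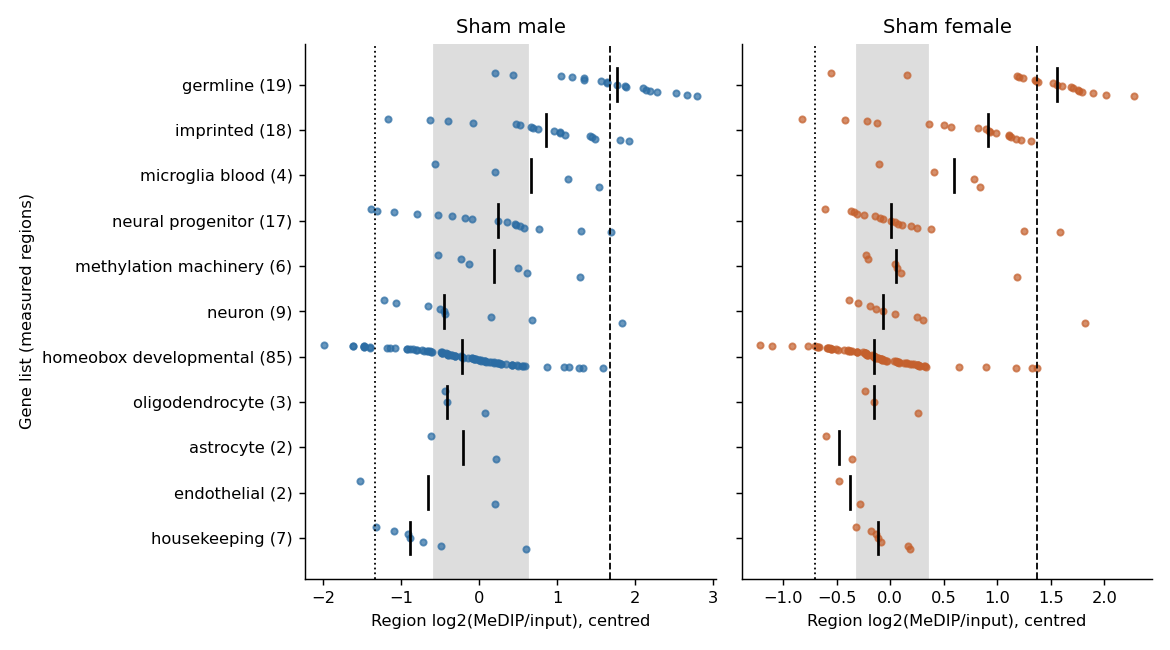
Region values of the 11 gene lists on the Sham male (left) and Sham female (right) arrays, with centred log2(MeDIP/input) on the x axis and 1 list per row, each point a region and each black bar the median of the list. The grey band holds the middle of all regions between their 25% and 75% quantiles, and the dashed and dotted lines mark the top and bottom 5%. The germline list lies near the dashed line, with medians of 1.77 and 1.56, and the imprinted list between the band and the line.

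The bottom 5% agreed less. Of 634 regions on each list, 109 were on both, 17.2% of each list and 0.860% of all regions. Their median values were -1.61 on the Sham male and -0.87 on the Sham female array. Cy5 was well above background at 18.8% and 35.7% of their 462 probes. In 108 of the 109 regions on the Sham male and in 86 on the Sham female array no more than 50% of the probes were well above background, so these values are given as bounds and are not ranked. Read through different probes on the 2 arrays, over the same 5953 regions as above, 17 of 298 (5.70%) and 16 of 298 (5.37%) regions were on both bottom lists, near the 5.00% that each list takes of all regions. Through the same probes it was 52 (17.4%) and 49 (16.4%). The 12 bottom regions named by their number of probes kept their place in none (0) of 12 cases when Cy5 had to be above background on both arrays, and also in none (0) after a loess fit.

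Within these limits, 6 of the 11 bottom regions with an annotation class were at promoters and 4 were inside genes. These were 0.838% of the 716 promoter regions and 0.184% of the 2175 regions inside genes. The share in the bottom group was 0.860% over all measured regions and 0.393% over regions with a symbol. Espl1 had -1.47 and -0.78 over 6 probes, all below the array median on both arrays. Mcm6 had -1.48 and -1.07 over 4 probes, also all below it. Ogg1, the glycosylase that removes oxidised guanine, had -1.55 and -0.72 over 5 probes, and Agbl5, a carboxypeptidase that trims tubulin, -1.37 and -1.57 over 5. Spry4, an inhibitor of growth factor signalling, had -1.64 and -0.85 over 7.

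The developmental genes in this group were Pitx3, a homeobox gene of midbrain dopamine neurons, Hoxa10 and Gata6. Pitx3 had -1.48 and -0.91 over 9 probes, but 3 of the 9 were above the median on each array and reached 2.14 on the Sham male array. Hoxa10 had -1.48 and -1.21 over 5 probes, and Gata6 had -1.40 and -1.11 over 3. Each of these genes also had a larger or better covered region outside the bottom group. It was at -0.40 and -0.54 over 12 probes for Pitx3 and at -0.73 and 0.27 over 12 for Hoxa10. For Gata6 it was at 0.42 and 0.26 over 13 probes. Grpel2, Yeats4, Dnmbp and Ier2 completed the named regions, with 3 to 5 probes each, between -1.52 and -1.38 on the Sham male array and between -0.85 and -0.71 on the Sham female array.

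The top regions were also high on the arrays that had not been used to choose them. On the TiO2-H array labelled female, 299 of 356 (84.0%) were in its top 5%, and on the TiO2-H array labelled male 248 of 356 (69.7%), against 5.00% of all regions. Their median values there were 2.24 and 1.65, and all but 1 of them were above the array median on the latter. This depended on the correction. With normexp, whose top group held 123 regions, the shares in the top 5% were 14.6% on the array labelled female and 3.25% on the one labelled male. The latter is below 5.00%. Of the bottom regions, 43 of 109 (39.4%) and 26 of 109 (23.9%) were in the bottom 5% of these arrays. Cy5 was well above background there at only 35.1% and 26.2% of the probes measured on the Sham arrays. At 22.6% and 27.0% of them it was a stand-in set by the software. Low values on the TiO2-H arrays are therefore bounds too. The arrays share every probe with the Sham arrays, and the correlations of probes described above apply here too. All 9 germline regions of the top group had values between 1.04 and 2.80 on these arrays, with Ddx4 at 2.80 and 2.12 and Dazl at 2.15 and 1.64, the array labelled female first. Among imprinted regions, Cdkn1c had 1.84 and 1.61 there and Peg3 1.25 and 1.06. Cdh15, the region of this list with the highest value on the Sham male array at 1.93 and 1.22, had 0.14 and -0.47 there.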

How the data were processed

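Pooled brain DNA of 4 groups was read on 1 array each (Agilent Mouse CpG Island, mm9). Per the file headers, the authors used Agilent Feature Extraction 10.7.3.1. Processed signals of both dyes, as deposited, are intensity values after background subtraction and detrending, scaled by 1 factor per dye (89.4 and 104 for Cy5, 10.6 and 9.69 for Cy3 on the Sham arrays). The deposited log10 ratio was used as an alternative, and the deposited p-value of single spots was not used. The series table equalled the scanner log10 ratios to within 5e-10. From these, log2 ratios were computed, centred on each array's autosomal median and summarised by region as stated in the report (Python 3.11.15, limma 3.58.1 for normexp and loess). With 1 array per group nothing was tested, and the number of arrays limits the precision. The region medians, tail lists, neighbour correlations, share of variance between regions and odd-even split were tested on simulated data. The simulated regions all had the same number of probes and no dim Cy5. Region building, symbol matching, gene lists and the alternative corrections were not part of that simulation. The members and lists were chosen with earlier results of these data known.

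Symbols were taken from a supplementary table when probe name and position equalled the scanner file. A second table without probe names gave 303 entries that were matched by position only. The accession's RefSeq gene had to carry the printed symbol on the same chromosome. Where the accession was not found, the printed symbol had to be a RefSeq symbol on that chromosome. This kept 4400 of 5365 probe entries with equal positions. The germline list includes Pom121l2, Stk33 and Tcp11, which had been seen in the tables of the study. Tables of the study also print Sycp3, Ddx4 and Dpep3 of this list, which were in the top group. Named regions were, among regions with a symbol only, the 12 top regions with the highest lower value, the 12 bottom regions with the most probes, and members of a list in either group, up to 6 a list. Germline regions beyond 6 are given to complete the count, and 1 item that falls under the rule is not reported here. Alternatives changed the filters, the gap, the number of probes, the summary, the correction and the tails. No columns of other samples were used (0).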

Additional observations from a re-analysis of the deposited data

How the results depend on the processing

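With Cy5 also required above background, 6833 regions remained, 189 in the top and 3 germline regions among them, and the correlation between the Sham arrays was 0.81. With normexp and an offset of 50 on raw signals, against a median Cy5 signal of 5.92 and 7.06 units, the top held 123 regions, 2 of them germline, the bottom 219, and the correlation between arrays was 0.20. With at least 5 probes, top, bottom and correlation were 236, 56 and 0.71. Tails of 2.5% gave 154 top and 35 bottom regions, and tails of 10% gave 842 and 357, with 15 germline regions in the top. After loess the bottom held 182 regions. The correlation between arrays was 0.75 after loess, 0.75 after a lowess fit on input, 0.80 with region means, and 0.27 and 0.25 with different probes, an alternative chosen after seeing the data. Other settings kept the counts of top regions between 336 and 374. The correlation of next probes on the Sham male array was 0.15 with the Cy5 filter, 0.15 without the Cy3 filter, 0.17 with gaps up to 500 bp, 0.18 with normexp, 0.26 with loess and 0.18 with lowess on input. On the Sham female array it was 0.17 without the Cy3 filter, 0.075 with normexp, 0.22 with loess and 0.19 with lowess on input. With normexp, 14.6% and 3.25% of top regions were in the top 5% of the TiO2-H arrays labelled female and male. Of the 12 named top regions, 5 stayed in the top group after loess. The causes were not tested. No paired analysis was possible because each group is 1 array and no result comes from a test.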
